A study of Homo sapiens with 12 samples.

Results

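The genes of the human mitochondrial genome were followed in 2 leukemia cell lines after knockdown of USP15, a deubiquitinating enzyme. Members were the rows of the deposited count tables that the authors placed on chromosome MT, split by biotype. There were 33 such genes among the 31316 genes listed in either table: 26 of 26226 in the KBM7 table (13 protein genes, 2 rRNA genes and 11 tRNA genes) and 33 of 28328 in the K562 table (13, 2 and 18). KBM7 and K562 are established lines from chronic myeloid leukemia. A pooled siRNA that targets USP15 (siUSP15) or a pool with no target (siCtrl) was transfected, and RNA was taken 72 h later. The groups were 2 siUSP15 and 2 siCtrl libraries of KBM7, and 4 siUSP15 and 4 siCtrl libraries of K562, with no further treatment and no genetic change named beyond that of the lines. Replicates 1 and 2 of K562 stood apart from replicates 3 and 4 with either siRNA and are called set 1 and set 2, each with 2 siUSP15 and 2 siCtrl libraries. The K562 file as deposited is titled as batch corrected, yet its counts are whole numbers, and no source says what separates the sets.

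The mitochondrial genome is a small circle that is copied into RNA from both strands as long precursors. These are cut into mRNAs, rRNAs and tRNAs, often at the tRNAs that lie between the other genes. The protein genes encode core subunits of respiratory complexes I (MT-ND1 to MT-ND6 and MT-ND4L), III (MT-CYB) and IV (MT-CO1 to MT-CO3) and of ATP synthase (MT-ATP6 and MT-ATP8), and the rRNAs MT-RNR1 and MT-RNR2 belong to the small and large subunits of the mitochondrial ribosome. Genes of one strand are thus transcribed together, and the steady levels of their RNAs are known to be set largely by how the RNAs are bound, tailed and degraded. The proteins that transcribe, cut, tail and degrade them are encoded in the nucleus.

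All 33 genes had the same start and end as in GENCODE on chrM of hg38, a circle of 16569 bases. MT-ND6 was the only protein gene on the light strand, as were 7 of the 18 tRNA genes. The last 15 bases of each protein gene are shown because they divide the genes by the stop codon within the annotated ends. Capitals mark the bases after the last sense codon. By the annotated ends, 7 genes had a complete stop (AGA in MT-CO1 and AGG in MT-ND6). Only T or TA stood in 6 genes, whose stop codon is known to be completed by the added A tail. MT-ATP6 ends and MT-CO3 starts at the same base, 9207, the last A of TAA. The stop of MT-ATP6 may thus be complete in the annotation only. MT-ND6 is given on its own strand.
MT-ND1: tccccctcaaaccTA
MT-ND2: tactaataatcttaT
MT-CO3: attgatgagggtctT
MT-ND3: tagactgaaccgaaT
MT-ND4: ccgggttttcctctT
MT-CYB: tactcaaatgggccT
MT-CO1: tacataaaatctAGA
MT-CO2: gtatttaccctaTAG
MT-ATP8: cccccacaatccTAG
MT-ATP6: cacgacaacacaTAA
MT-ND4L: ctactccaatgcTAA
MT-ND5: ctcctaatcacaTAA
MT-ND6: gctcgggggaatAGG
Neighbouring genes also share bases, and how the counting treated reads there is not given in the sources used here. The stretch around the 46 bases that MT-ATP8 and MT-ATP6 share (capitals, chrM:8517-8582, plus strand) and that around the 7 bases shared by MT-ND4L and MT-ND4 (capitals, chrM:10750-10776, plus strand) are shown for that reason.
MT-ATP8/MT-ATP6 overlap: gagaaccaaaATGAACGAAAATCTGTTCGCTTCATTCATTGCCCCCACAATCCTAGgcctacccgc
MT-ND4L/MT-ND4 overlap: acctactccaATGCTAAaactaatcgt
The passage from MT-RNR2 to MT-ND1 (chrM:3215-3321, plus strand) is shown because MT-TL1 lies there between 2 genes whose fold changes differed in K562 set 1. Capitals mark the 77 bases between the 2 neighbours, of which the first 75 are MT-TL1, the tRNA for leucine.
MT-RNR2 to MT-ND1: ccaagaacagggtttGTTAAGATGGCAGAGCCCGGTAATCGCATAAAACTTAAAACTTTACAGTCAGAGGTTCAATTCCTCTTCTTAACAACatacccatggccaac

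Total counts ran from 23020401 to 29441118 in 11 libraries and reached 43566543 in siUSP15 replicate 2 of K562, and no protein gene had under 1288 counts in a library (MT-ND6 in KBM7). Normalized CPM are counts scaled to the library total with TMM factors. USP15 stood at 113 and 114 normalized CPM in siUSP15 KBM7 against 210 and 216 in siCtrl KBM7, at 116 and 134 with siUSP15 against 269 and 275 with siCtrl in set 1, and at 191 and 197 with siUSP15 against 343 and 330 with siCtrl in set 2. The blood cell gene PTPRC stood at 447 to 491 CPM in KBM7 and 16.5 to 44.8 CPM in K562, and the erythroid factor GATA1 at 18.7 to 32.9 CPM in KBM7 and 211 to 272 CPM in K562. CDKN2A, which K562 is known to lack, had 61.4 to 71.3 CPM in KBM7 and 0 counts in K562. EPCAM and KRT19, known from epithelia, had at most 2 counts in a KBM7 library, and 82.5 to 97.0 and 103 to 141 CPM in K562. In KBM7, GATA1 had 18.7 and 19.0 CPM with siUSP15 and 31.5 and 32.9 CPM with siCtrl. TAL1 and CD33 were also lower in both siUSP15 libraries of KBM7, and PTPRC, SPI1 and LMO2 were higher in both. In normalized CPM, groups without overlap made up 66.5% of all genes in KBM7. Of 6 blood cell markers, 5 changed in K562 set 1 too. PTPRC had 30.9 and 26.3 CPM with siUSP15 and 44.8 and 43.4 CPM with siCtrl, and SPI1 had 24.7 and 22.1 CPM with siUSP15 and 38.5 and 38.1 CPM with siCtrl. PTPRC, SPI1, CD33 and TAL1 fell, LMO2 rose and GATA1 did not pass in set 1, and 0 of the 6 passed in set 2 (edgeR). Of all genes, 17.5% were called higher and 18.2% lower in set 1, but only 1.11% and 1.19% in set 2. The count of 0 in set 2 thus lies near the share of all genes. Their part in the results was not tested.

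Mitochondrial protein genes took the largest share of counts in set 1, and knockdown of USP15 moved that share little. In KBM7 they held 2.22% and 1.85% of all counts with siUSP15 and 1.78% and 2.31% with siCtrl. The groups overlapped, with means of 2.04% ± 0.266 and 2.04% ± 0.378 (SD, n = 2 each) and a ratio of 0.996. In set 1 the share was 4.61% and 4.94% with siUSP15 and 4.34% and 4.44% with siCtrl, a ratio of 1.09 with no overlap. In set 2 it was 2.96% and 2.92% with siUSP15 and 2.91% and 2.94% with siCtrl, a ratio of 1.01 with overlap. In 2-sided exact permutation tests, p was 1 in KBM7, 0.333 in set 1 (the smallest that 2 against 2 libraries allow) and 0.667 in set 2. Over all 8 K562 libraries p was 0.543 with libraries exchanged freely and 0.111 with libraries exchanged only within the sets, where the smallest possible values are 0.0286 and 0.0556 (exact permutation tests). In KBM7 the ratio ran from 0.881 to 1.15 when 1 library was left out, so its direction depended on a single library, as it did over all K562 libraries (0.956 to 1.14). The number of mitochondria and the amount of RNA in each cannot be told apart in such shares.

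**Figure D1:**
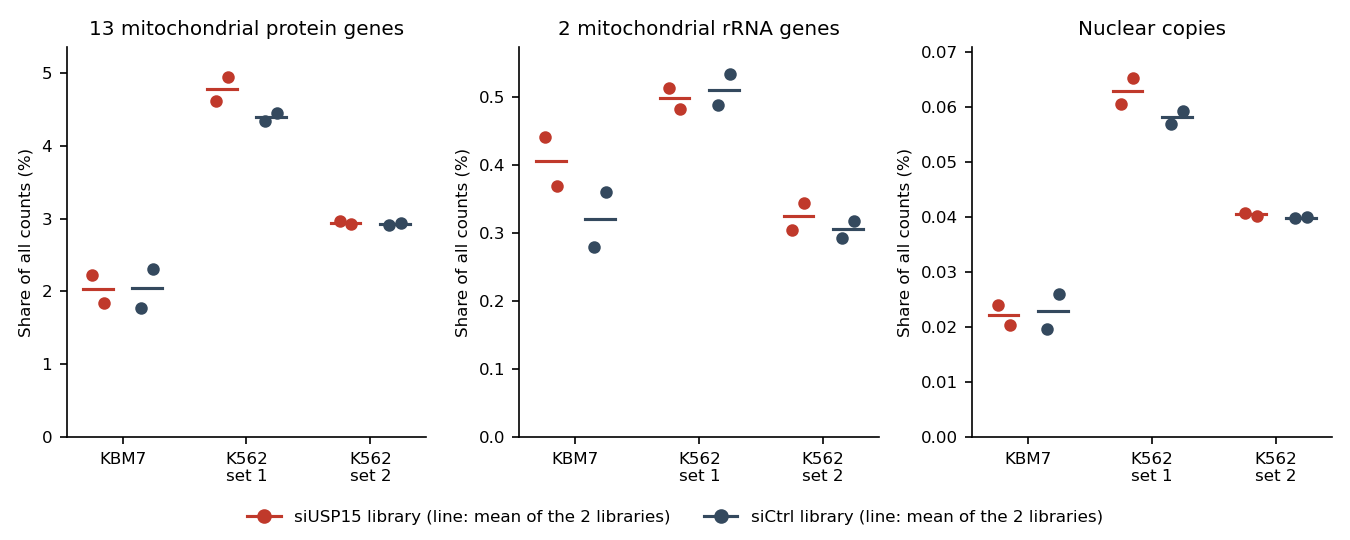
Share of all counts (%) on the 13 mitochondrial protein genes, the 2 mitochondrial rRNA genes and the nuclear copies of mitochondrial genes, by library (points) with the mean of the 2 libraries of a group (lines), siUSP15 in red and siCtrl in dark grey. In set 1 the protein genes held 4.61% and 4.94% with siUSP15 against 4.34% and 4.44% with siCtrl, while the rRNA genes overlapped, and in KBM7 the rRNA genes held 0.441% and 0.370% against 0.280% and 0.361%.

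The rRNA genes followed another pattern. They held 0.441% and 0.370% of counts with siUSP15 and 0.280% and 0.361% with siCtrl in KBM7, with no overlap and a ratio of 1.26 (p = 0.333, exact permutation test). In set 1 they held 0.514% and 0.483% with siUSP15 and 0.488% and 0.534% with siCtrl, and in set 2 0.305% and 0.345% with siUSP15 and 0.294% and 0.318% with siCtrl, with overlap in both sets. The tRNA genes summed to 41 to 200 counts per library. Small noncoding RNAs known to lack an A tail, such as RN7SK, held at most 0.00249% of counts in any library. The share of this class, siUSP15 over siCtrl, had a ratio of 1.11 in KBM7 and 1.12 in set 1, without overlap. In set 2 the ratio was 1.15, with overlap. RN7SK itself, at 6 to 14 counts, was lower in both siUSP15 libraries of KBM7.

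Levels of the protein genes differed widely within a library. Per kilobase of gene, MT-CO2 had the highest mean in siCtrl KBM7 with 3328 ± 580 normalized CPM per kb and MT-ND6 the lowest with 113 ± 19.8 (SD, n = 2 each), and MT-CO3 with 3199 ± 561 lay within the spread of MT-CO2. MT-CO2 and MT-CO3 encode complex IV subunits. In siCtrl K562, MT-ND4 was highest in both sets, with 8178 ± 41.3 per kb in set 1 and 5250 ± 0.329 in set 2, where MT-CO3 with 5168 ± 126 lay within its own spread of it (SD, n = 2 each). MT-ND6 was lowest of the protein genes in set 1 with 415 ± 11.2 per kb, and MT-ND5 was lowest in set 2 with 440 ± 26.3 per kb. MT-ND6 and MT-ND5 lie end to end on opposite strands, and since no source used here says whether counting used strand, reads of MT-ND6 and of the RNA opposite to it may not be told apart.

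In KBM7, none of the 13 protein genes passed the test, whereas MT-RNR2 rose. The 13 log2 fold changes ran from -0.20 (MT-CYB) to 0.14 (MT-ND1) with a median of -0.06, against a median of 0.00 over all 14980 genes tested. By edgeR's quasi-likelihood test, 0 passed an adjusted p of 0.05, 0 had an unadjusted p under 0.05, and DESeq2 and limma-voom also called 0, where 13.2% of all genes were called higher and 15.8% lower. Normalized CPM of 0 of the 13 protein genes were free of overlap between the groups, against 66.5% of all genes. With no filter on low counts, edgeR called 5 of the 13, 1 higher (MT-ND1, adjusted p = 0.000375) and 4 lower (MT-CYB, MT-ND6, MT-ATP6 and MT-ATP8). The share of all genes called is not given for this fit or for those with 1 library left out. Their counts therefore cannot be read as particular to these genes. Leaving out 1 library gave 2 to 5 calls whose direction turned with the library: 3 lower without siCtrl replicate 1, 2 higher without siCtrl replicate 2, 5 lower without siUSP15 replicate 1, and 3 higher and 1 lower without siUSP15 replicate 2.

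MT-RNR2, the 16S rRNA of the large ribosomal subunit, stood at 3709 and 3076 normalized CPM in siUSP15 KBM7 and at 2357 and 3031 in siCtrl KBM7. The groups did not overlap, but the lower siUSP15 library lay close to the higher siCtrl library. This made a log2 fold change of 0.33 ± 0.104 (standard error), with an adjusted p of 0.0317 in edgeR. The call was lost without siCtrl replicate 1 (0.16, adjusted p = 0.252 in edgeR) and with DESeq2 (adjusted p = 0.355). MT-RNR1, the 12S rRNA of the small subunit, stood at 663 and 591 normalized CPM with siUSP15 and 489 and 608 with siCtrl, with overlap, and had 0.19 on the log2 scale (adjusted p = 0.105 in edgeR). It passed without siCtrl replicate 2 (0.37, adjusted p = 0.000888) or without siUSP15 replicate 2 (0.28, adjusted p = 2.09e-07, both in edgeR).

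Relative to the sum of the 13 protein genes, the shares of 8 of the 13 did not overlap between the groups in KBM7, 2 higher and 6 lower with siUSP15. The same was the case in 12 of 13 in set 1 and 6 of 13 in set 2. In normalized CPM, a different measure, groups without overlap made up 66.5% of all genes in KBM7, 67.4% in set 1 and 48.4% in set 2. A lack of overlap was thus common among all genes. The examples were picked after their values were seen. MT-RNR2 equalled 16.83% and 16.81% of that sum in the siUSP15 libraries and 13.08% and 13.02% in the siCtrl libraries. MT-ND1, a complex I subunit, made up 8.47% and 8.01% of it with siUSP15 and 7.33% and 7.37% with siCtrl. MT-CYB, the cytochrome b subunit of complex III, made up 7.98% and 8.15% with siUSP15 and 8.88% and 9.13% with siCtrl. Each of these had p = 0.333, the smallest an exact permutation test of 2 against 2 libraries can give. Shares of 1 sum are not independent, since a higher share of one gene lowers the others.

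In K562 set 1, 8 of the 13 protein genes rose and 0 fell with siUSP15 (edgeR, adjusted p under 0.05), with 12 of 13 above 0. Of all 14337 genes, 17.5% were called higher and 18.2% lower in the same comparison, and the median log2 fold change was 0.21 over the 13 genes and -0.01 over all genes. Complex I contributed 4 of its 7 genes, complex III its only gene, complex IV 1 of 3 and ATP synthase 2 of 2. Between 8 and 10 genes were called when 1 library was left out, and 7 with DESeq2. Normalized CPM of 9 of the 13 genes were higher in both siUSP15 libraries than in both siCtrl libraries, and groups without overlap made up 67.4% of all genes.

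**Figure D2:**
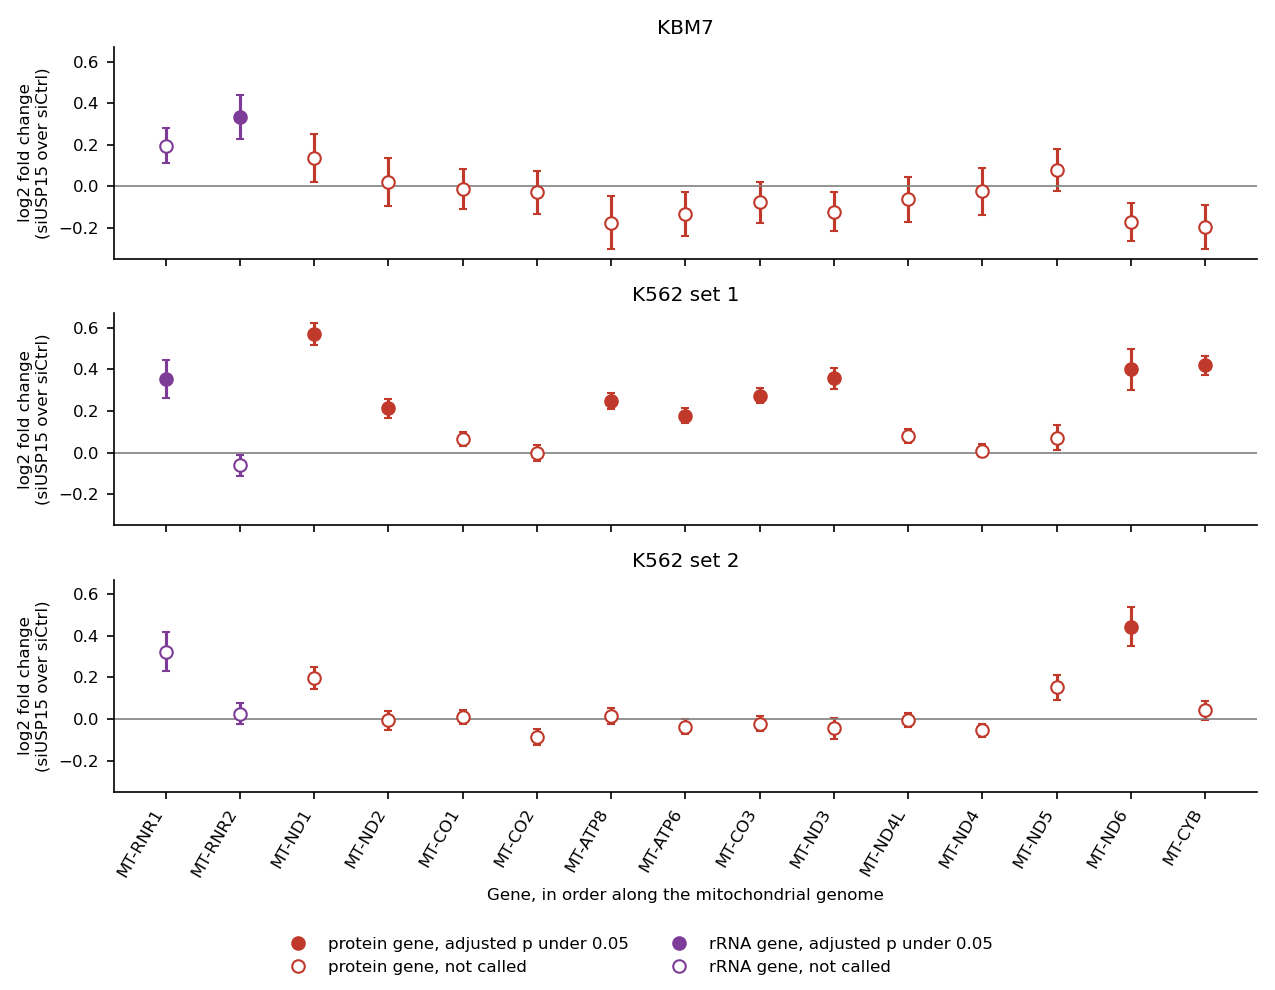
Log2 fold change of siUSP15 over siCtrl with its standard error (bars) for the 2 rRNA genes (purple) and 13 protein genes (red) in order along the mitochondrial genome, in KBM7, K562 set 1 and K562 set 2. Filled points had an adjusted p under 0.05 in edgeR: MT-RNR2 in KBM7, 8 protein genes and MT-RNR1 in set 1, and MT-ND6 in set 2.

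MT-ND1 had the largest increase of the protein genes in set 1. It stood at 2479 and 2701 normalized CPM with siUSP15 and at 1616 and 1874 with siCtrl, so that the log2 fold change came to 0.57 ± 0.0537 (standard error; adjusted p = 1.08e-06 in edgeR). MT-CYB stood at 3046 and 3254 with siUSP15 and 2209 and 2499 with siCtrl (0.42 ± 0.0461, adjusted p = 4.88e-06 in edgeR). In both genes the siUSP15 libraries lay well above the siCtrl libraries.

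MT-ND6, the complex I subunit of the light strand, stood at 316 and 262 normalized CPM with siUSP15 and 222 and 214 with siCtrl in set 1 (0.40 ± 0.0971, adjusted p = 0.00416 in edgeR). DESeq2 did not call it (adjusted p = 0.0687). MT-ND3, another complex I subunit, stood at 604 and 657 with siUSP15 and 474 and 510 with siCtrl (0.36). MT-CO3, of cytochrome c oxidase, stood at 6175 and 6687 with siUSP15 and 5228 and 5411 with siCtrl (0.27). The remaining increases were MT-ATP8 (0.25), MT-ND2 (0.21) and MT-ATP6 (0.18).

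The other 5 protein genes did not pass the test in set 1. MT-ND4 had 10945 and 11742 normalized CPM with siUSP15 and 11310 and 11229 with siCtrl, and MT-CO2 had 4763 and 5106 with siUSP15 and 4944 and 4945 with siCtrl, with overlap in both. Their log2 fold changes were 0.01 and -0.00, and those of MT-CO1, MT-ND5 and MT-ND4L were 0.06, 0.07 and 0.08. Adjusted p of the 5 genes ran from 0.0777 for MT-ND4L to 0.963 for MT-CO2 (edgeR). Some of them passed when 1 library was left out: MT-ND5 without siCtrl replicate 2 (0.18), MT-CO1 without siUSP15 replicate 1 (0.13), and MT-ND4L without siUSP15 replicate 1 (0.14) or siUSP15 replicate 4 of set 2 (0.09). MT-ND4L also passed with limma-voom (adjusted p = 0.0425) and with the replicate number as a block (adjusted p = 0.0426 in edgeR). With no filter on low counts, MT-ND4L, MT-CO1 and MT-ND5 passed (adjusted p = 0.00712, 0.00384 and 0.0183 in edgeR). The 5 genes lie on the same strand as 7 of the 8 that rose, and MT-ND4L and MT-ND4 share bases.

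Genes with an incomplete stop by their annotated ends, listed first among the 3′ ends above, included 5 of the 8 that rose in set 1. Of the 6 genes ending in T or TA, 5 were called higher (median log2 fold change 0.32, from 0.01 in MT-ND4 to 0.57 in MT-ND1). Of the 7 with a complete stop, 3 were called higher (median 0.08, from -0.00 in MT-CO2 to 0.40 in MT-ND6). In set 2 the medians of those groups were -0.01 and 0.01, and in KBM7 -0.05 and -0.06. The grouping was made after the values had been seen and was not tested. It counts MT-ATP6 (0.18, called higher in set 1) among the complete stops, though its last base is also the first of MT-CO3. The split therefore depends on where MT-ATP6 is placed.

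The rRNAs parted in set 1. MT-RNR1 stood at 678 and 621 normalized CPM with siUSP15 and 513 and 503 with siCtrl (0.35 ± 0.0934, adjusted p = 0.00727 in edgeR), which DESeq2 did not call (adjusted p = 0.105). MT-RNR2 stood at 4419 and 4179 with siUSP15 and 4237 and 4732 with siCtrl, with overlap (-0.06, adjusted p = 0.366 in edgeR). The ratio of MT-RNR2 to MT-RNR1 counts was 6.52 and 6.73 with siUSP15 and 8.26 and 9.41 with siCtrl in set 1, and 4.92 and 4.35 with siUSP15 and 6.33 and 5.14 with siCtrl in set 2. In KBM7 it was 5.59 and 5.21 with siUSP15 and 4.82 and 4.99 with siCtrl, so the ratio was lower with siUSP15 in both K562 sets and higher in KBM7. This ratio was chosen after its values had been seen and carries no test.

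**Figure D3:**
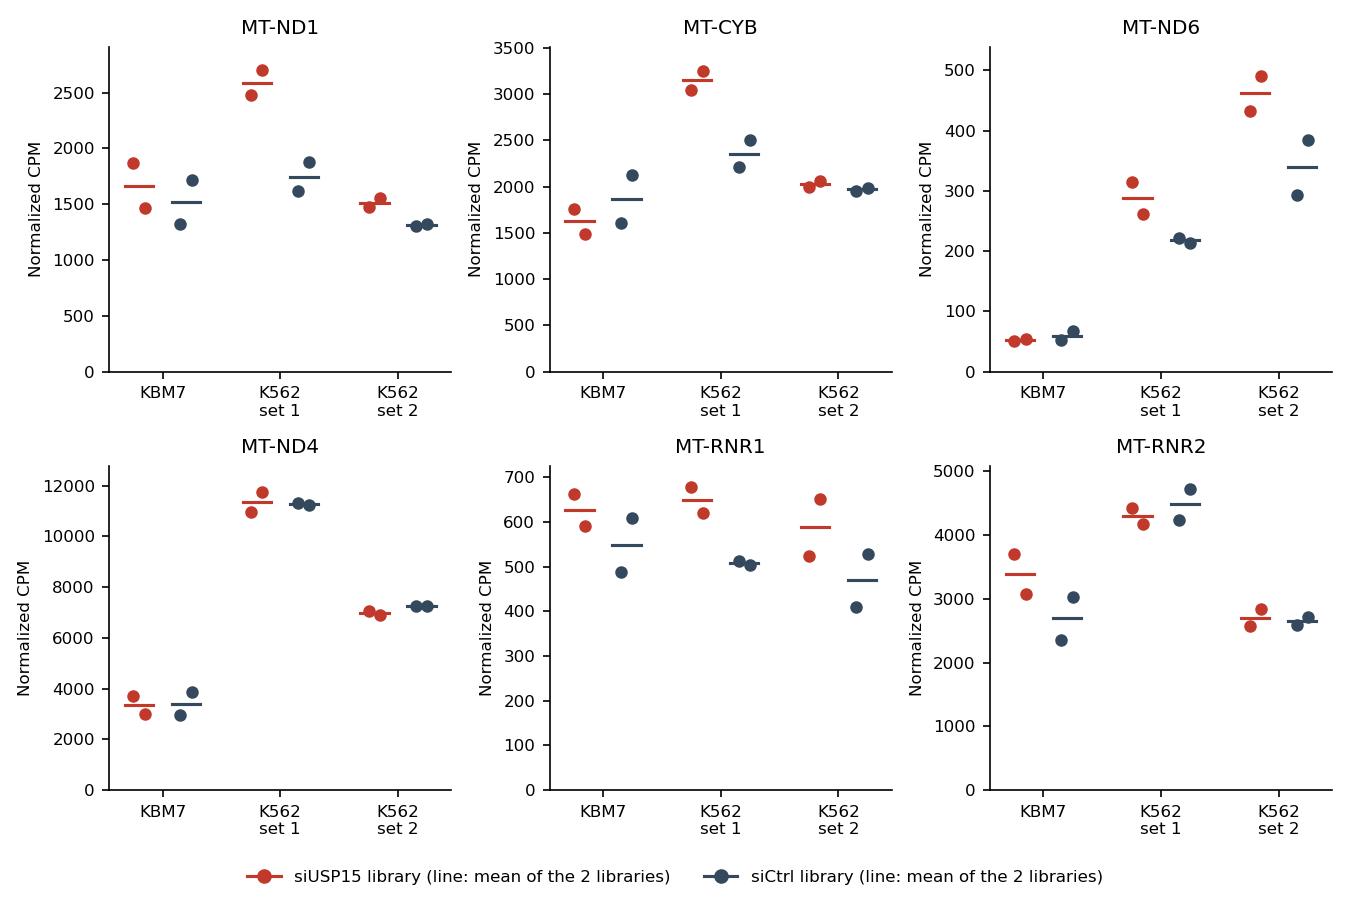
Normalized CPM of 4 protein genes and both rRNA genes in each library (points) with the mean of the 2 libraries of a group (lines), siUSP15 in red and siCtrl in dark grey. MT-ND1 with 2479 and 2701 against 1616 and 1874 and MT-CYB with 3046 and 3254 against 2209 and 2499 are separated in set 1, whereas MT-ND4 overlaps there.

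Only 2 tRNA genes, MT-TL1 and MT-TI, passed the filter on low counts, and both lay under an average of 1 log2 CPM, so they are named here after their values were seen. MT-TL1 had 59 and 106 counts with siUSP15 and 20 and 32 with siCtrl in set 1, or 2.42 and 2.42 normalized CPM against 0.845 and 1.33. The increase of 1.15 ± 0.245 on the log2 scale passed (adjusted p = 0.00168 in edgeR), beside 0.57 for MT-ND1 downstream and -0.06 for MT-RNR2 upstream in the passage shown above. In set 2 MT-TL1 had 44 and 36 counts with siUSP15 and 23 and 35 with siCtrl (0.48, adjusted p = 0.388 in edgeR). MT-TI, the tRNA for isoleucine that follows MT-ND1, had 24 and 54 counts with siUSP15 and 13 and 15 with siCtrl in set 1 (0.95, adjusted p = 0.0192 in edgeR). In set 2 MT-TI had 20 and 19 counts with siUSP15 and 19 and 17 with siCtrl (0.13, adjusted p = 0.884 in edgeR). Neither passed in KBM7. There MT-TL1 had 51 and 46 counts with siUSP15 and 47 and 48 with siCtrl (0.04), and MT-TI had 7 and 10 with siUSP15 and 4 and 11 with siCtrl (0.19). The other 16 tRNA genes did not reach the tests. They had 0 to 13 counts in a library.

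In set 2, MT-ND6 was the only protein gene called, at 432 and 491 normalized CPM with siUSP15 and 294 and 385 with siCtrl. Both siUSP15 libraries lay above both siCtrl libraries (0.44 ± 0.0951 on the log2 scale, adjusted p = 0.0222 in edgeR). Of all genes, 1.11% were called higher and 1.19% lower. The call was lost without siCtrl replicate 3 (adjusted p = 0.262), without siUSP15 replicate 4 (adjusted p = 0.161) and with DESeq2 (adjusted p = 0.231, all from fits across all genes). MT-ND1 stood at 1471 and 1551 with siUSP15 and 1308 and 1325 with siCtrl, without overlap, and had 0.20 (adjusted p = 0.0672 in edgeR). MT-RNR1 stood at 524 and 652 with siUSP15 and 410 and 529 with siCtrl, with overlap, and had 0.32 (adjusted p = 0.0890 in edgeR). With the replicate number as a block, MT-ND1 (adjusted p = 0.00103) and MT-RNR1 (adjusted p = 5.65e-05, both in edgeR) passed as well, which made 2 protein genes. That block takes same-numbered libraries as pairs, which is not established within the sets. In set 2 they correlated at only 0.0865 around means of set and siRNA. Leaving out 1 of the 4 libraries of set 1 also brought MT-ND1 past the threshold (adjusted p from 0.0244 to 0.0313), and MT-RNR1 passed without siCtrl replicate 4 (0.52), siUSP15 replicate 3 (0.47) or siUSP15 replicate 1 (0.33, all in edgeR). Groups of 4 protein genes lay wholly higher and of 2 wholly lower, and groups without overlap made up 48.4% of all genes.

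The response of 7 protein genes was larger in set 1 than in set 2 by the test of the difference itself, where 6.77% of all genes were called higher. The difference in log2 fold change was 0.40 for MT-ND3, 0.38 for MT-CYB, 0.37 for MT-ND1, 0.30 for MT-CO3, 0.23 for MT-ATP8, 0.22 for MT-ND2 and 0.21 for MT-ATP6 (adjusted p from 0.00228 to 0.0312, edgeR). MT-ND6 (-0.04) and MT-RNR1 (0.03) did not pass (adjusted p = 0.872 and 0.910, standard errors 0.136 and 0.132, edgeR). Without siCtrl replicate 1 or siCtrl replicate 3, 4 genes were called, with MT-ATP8, MT-ND2 and MT-ATP6 lost in both cases. MT-ND2 was also lost without siCtrl replicate 2, and MT-ND2 and MT-ATP6 without siUSP15 replicate 2 or siUSP15 replicate 4.

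With the sets as a block over all 8 K562 libraries, 3 of 13 protein genes rose and 0 fell, against 6.88% of all genes called higher and 8.90% lower. These were MT-ND6 (0.42, adjusted p = 0.00779), MT-ND1 (0.38, adjusted p = 0.00679) and MT-CYB (0.23, adjusted p = 0.0392, all in edgeR). MT-RNR1 (0.34, adjusted p = 0.0159) and MT-TL1 (0.84, adjusted p = 0.0181, both in edgeR) also rose. The call of MT-CYB was lost with the replicate number as a block (adjusted p = 0.0739), with DESeq2 (adjusted p = 0.153) and without any 1 of the 4 libraries of set 1. The call of MT-RNR1 was lost without siCtrl replicate 2 or siUSP15 replicate 1. Without siUSP15 replicate 4, 6 protein genes were called, with MT-CO3, MT-ATP8 and MT-ND3 added.

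Without a block for the sets, 0 of 13 protein genes passed in K562, as did 0% of all 13731 genes (edgeR). Before adjustment, 0 protein genes and 1447 genes in all had p under 0.05, and DESeq2 and limma-voom also called 0 of the 13. With the replicate number as a block, MT-ND1 (adjusted p = 0.0230), MT-ND6 (adjusted p = 0.00909) and MT-RNR1 (adjusted p = 0.00691, all in edgeR) passed. This is the same fit as that with the replicate number in place of the sets above, since the numbers lie within the sets and a block for them takes up the sets too. Of all genes, 8.19% had no overlap between the 4 siUSP15 and 4 siCtrl libraries, as had 0 of the 13.

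Within the sum of the protein genes, 3 of the 13 shares did not overlap over the 8 K562 libraries. In normalized CPM, a different measure, groups without overlap made up 8.19% of all genes. MT-ND1 made up 5.42%, 5.50%, 4.89% and 5.25% in siUSP15 replicates 1 to 4 and 3.83%, 4.30%, 4.40% and 4.41% in siCtrl replicates 1 to 4. MT-ND4 made up 23.9%, 23.9%, 23.4% and 23.3% with siUSP15 and 26.8%, 25.8%, 24.3% and 24.1% with siCtrl. MT-CYB made up 6.66%, 6.63%, 6.63% and 6.99% with siUSP15 and 5.23%, 5.74%, 6.57% and 6.62% with siCtrl, where the nearest libraries of the groups almost met. The share of MT-ND1 was therefore higher and that of MT-ND4 lower with siUSP15 in both sets. Each of the 3 had p = 0.0286 with free exchange and p = 0.0556 within sets, the smallest that either exact permutation test allows, unadjusted for the 13 shares examined. Since the 3 were picked for their lack of overlap, both values were fixed by that choice and add nothing to it. The shares of MT-CO2, lower with siUSP15 in both sets, and MT-ND6, higher in both sets, overlapped over all libraries. They too had p = 0.0556 within sets (exact permutation test).

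**Figure D4:**
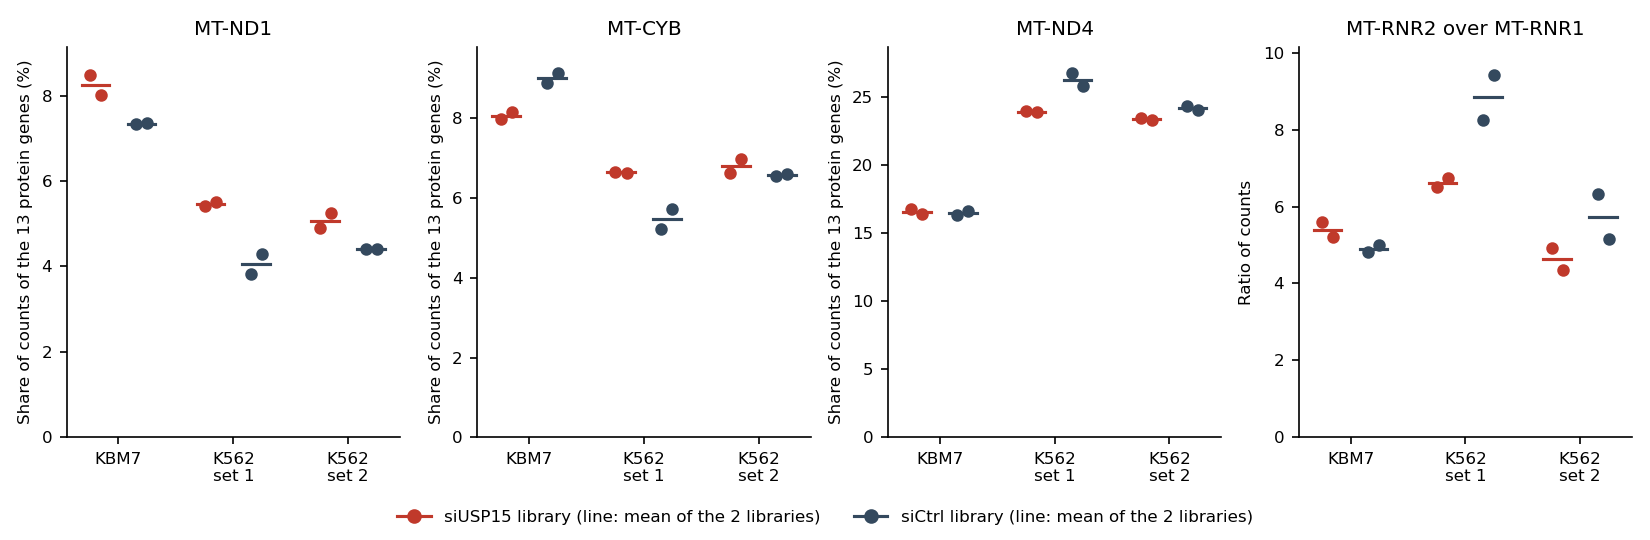
Share (%) of MT-ND1, MT-CYB and MT-ND4 in the counts of the 13 protein genes, and the ratio of MT-RNR2 to MT-RNR1 counts, in each library (points) with the mean of the 2 libraries of a group (lines), siUSP15 in red and siCtrl in dark grey. MT-ND1 is higher with siUSP15 in KBM7 and both K562 sets, while MT-CYB is lower in KBM7 (7.98% and 8.15% against 8.88% and 9.13%) and higher in set 1 (6.66% and 6.63% against 5.23% and 5.74%).

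Between the cell lines, the KBM7 response was compared over all 12 libraries with the mean of the responses of K562 set 1 and set 2. By the test of this difference, the response was lower in KBM7 for 3 protein genes and higher for MT-RNR2. Of all 15833 genes, 12.6% were called lower and 10.6% higher. The differences were -0.59 for MT-ND6 (adjusted p = 0.00149), -0.42 for MT-CYB (adjusted p = 0.00311), -0.27 for MT-ND3 (adjusted p = 0.0395) and 0.36 for MT-RNR2 (adjusted p = 0.00916, all in edgeR). In set 1 and set 2 the log2 fold changes were 0.42 and 0.04 for MT-CYB, 0.36 and -0.04 for MT-ND3, 0.40 and 0.44 for MT-ND6, and -0.06 and 0.03 for MT-RNR2. The K562 mean of MT-CYB and MT-ND3 thus came mostly from set 1. Titles give each line its own number prefix, so the line and what that prefix stands for cannot be told apart. DESeq2 called MT-ND6 alone of the 4 (adjusted p = 0.0357). The call of MT-RNR2 was lost without siCtrl replicate 1 or siUSP15 replicate 1 of KBM7. MT-ND3 was lost without siCtrl replicate 2 or siUSP15 replicate 2 of KBM7 and without siCtrl replicate 1, siCtrl replicate 4, siUSP15 replicate 2 or siUSP15 replicate 3 of K562. Without siCtrl replicate 1 or siUSP15 replicate 1 of KBM7 8 protein genes were called lower, and without siCtrl replicate 2 of KBM7 MT-ND6 was the only one.

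The sets also differed without knockdown of USP15. In siCtrl cells, set 1 over set 2, 12 of 13 protein genes were higher and MT-ND6 was lower, where 29.0% of all genes were called higher and 26.4% lower (edgeR). The log2 differences ran up to 0.72 for MT-CO2, with 4944 and 4945 normalized CPM in set 1 and 3012 and 2979 in set 2. MT-ND6 had 222 and 214 in set 1 and 294 and 385 in set 2, a difference of -0.64 (adjusted p = 3.25e-05 in edgeR). MT-RNR2 was also higher in set 1 (0.75), whereas MT-RNR1 had 0.11 (adjusted p = 0.325 in edgeR) and passed without siCtrl replicate 4 (0.30). These calls are between the same 4 siCtrl libraries that serve as controls above.

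Other RNAs were compared beside these results. Nuclear copies of mitochondrial genes, pseudogenes that can share reads with the mitochondrial genes, held 0.0606% and 0.0653% of counts with siUSP15 and 0.0570% and 0.0593% with siCtrl in set 1. They held 0.0408% and 0.0403% with siUSP15 and 0.0398% and 0.0401% with siCtrl in set 2, and 0.0241% and 0.0203% with siUSP15 and 0.0197% and 0.0261% with siCtrl in KBM7. MTATP6P1, a copy of MT-ATP6 on chromosome 1, held the most counts of the copies in both lines, followed by MTND2P28 on chromosome 1. The third was MTND4P12 on chromosome 5 in KBM7 and MTRNR2L8 on chromosome 11 in K562. Replication-dependent histone mRNAs, which lack an A tail, held 0.0900% and 0.0842% with siUSP15 and 0.103% and 0.106% with siCtrl in set 1, and were lower with siUSP15 in both libraries of set 2 and of KBM7 too. The nuclear RNAs MALAT1, NEAT1 and KCNQ1OT1 together held 0.0804% and 0.0798% with siUSP15 and 0.0785% and 0.0755% with siCtrl in set 1, and 0.0530% and 0.0762% with siUSP15 and 0.0455% and 0.0517% with siCtrl in set 2, without overlap in either set. In KBM7 they held 0.101% and 0.0934% with siUSP15 and 0.0719% and 0.0947% with siCtrl. The part of these RNAs in the results was not tested.

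Nuclear-encoded factors that handle these RNAs were counted in the same comparisons. Of a list of 46 genes for mitochondrial transcription, replication and RNA processing, 19 were higher and 1 lower in set 1 (median 0.10, against -0.01 over all genes), and 0 of 46 passed in either direction in set 2 (edgeR). In set 1, 17.5% of all genes were called higher and 18.2% lower, and in set 2 only 1.11% and 1.19%. The count of 0 in set 2 thus lies near the share of all genes. In KBM7, 6 were higher and 3 lower of 45 tested, where 13.2% of all genes were called higher and 15.8% lower. The blocked fit of all K562 libraries called 3 higher and 1 lower, where 6.88% of all genes were called higher and 8.90% lower. Between the siCtrl libraries, set 1 over set 2, 27 were lower and 1 higher, where 26.4% of all genes were called lower and 29.0% higher.

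By role, the transcription genes POLRMT, the mitochondrial RNA polymerase, TFB2M, which opens the promoter, and TFAM, which packages the genome, rose in set 1 by log2 fold changes of 0.23, 0.38 and 0.12, while the elongation factor TEFM had 0.02. TWNK, the replicative helicase, rose by 0.43. In set 1, LRPPRC and SLIRP, which bind and stabilize mitochondrial mRNAs, rose by 0.26 and 0.14, MTPAP, which adds the A tails, by 0.18, and SUPV3L1, the helicase of the degrading complex, by 0.24. PNPT1, the nuclease partner of SUPV3L1, had -0.07 in set 1 but rose by 0.32 in KBM7 (adjusted p = 0.000543 in edgeR). In KBM7, TOP1MT, a mitochondrial topoisomerase, rose by 0.31, while the nuclease MGME1 fell by 0.40 and POLG, the DNA polymerase, fell by 0.22. With the sets as a block, LRPPRC rose by 0.15, the tRNA-modifying enzymes TRMU by 0.17 and PUS1 by 0.23, and TRIT1, which modifies tRNAs of both compartments, fell by 0.15 (adjusted p = 0.0143 in edgeR).

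**Figure D5:**
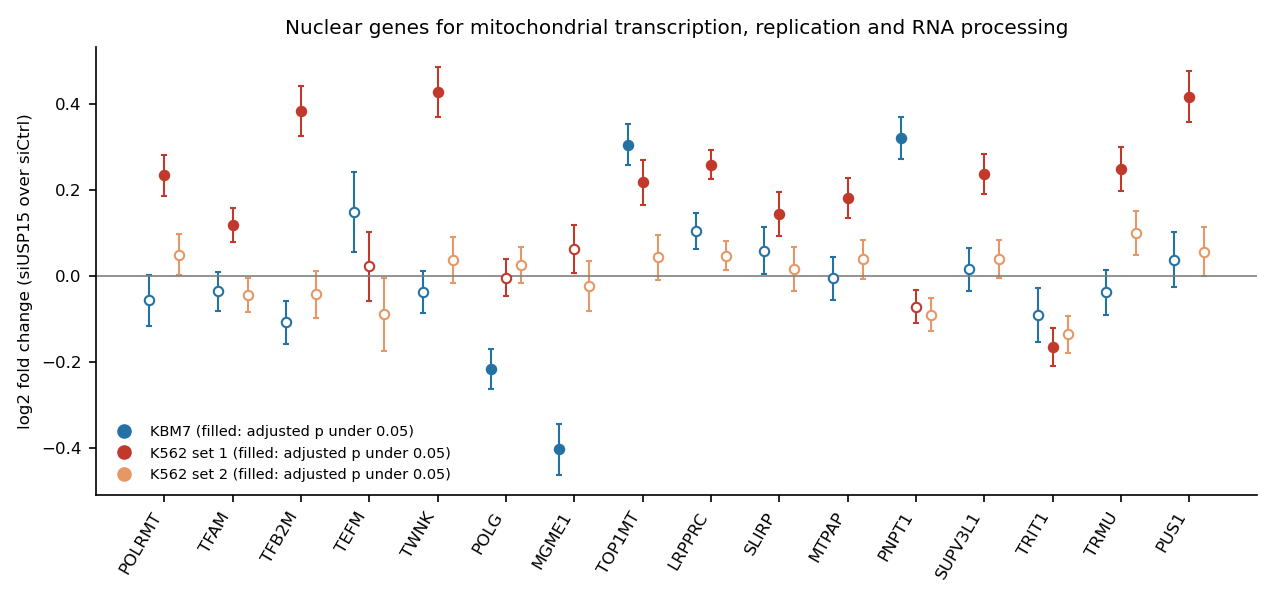
Log2 fold change of siUSP15 over siCtrl with its standard error (bars) for 16 nuclear genes of mitochondrial transcription, replication and RNA processing, in KBM7 (blue), K562 set 1 (red) and K562 set 2 (orange). Filled points passed an adjusted p of 0.05 in edgeR. TWNK, PUS1 and TFB2M are highest in set 1 with 0.43, 0.42 and 0.38. None of the 16 is filled in set 2, where 1.11% of all genes were called higher and 1.19% lower.

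Of 9 nuclear regulators of mitochondrial gene programmes, 8 were tested, and those called are named here after their values were seen. PPRC1, a coactivator, rose by 0.34 in set 1, NRF1 by 0.22 and MYC by 0.17, while the coactivator PPARGC1B fell by 0.23. In KBM7, MYC fell by 0.23, GABPB1 by 0.20 and YY1 by 0.16, and 0 were higher. The shares of all genes called were 17.5% higher and 18.2% lower in set 1, and 13.2% higher and 15.8% lower in KBM7. With the sets as a block only PPRC1 passed (0.19, adjusted p = 0.0406 in edgeR), and in set 2 0 of 8 did. The shares of all genes were 6.88% higher and 8.90% lower with that block, and 1.11% and 1.19% in set 2.

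Across the 13 protein genes, the log2 fold change in KBM7 had Pearson's r of -0.60 with the start position, 0.55 with length, 0.49 with GC content and 0.49 with the mean log2 CPM. In set 1 these were 0.00, -0.28, 0.02 and -0.46, and in set 2 0.30, 0.04, 0.03 and -0.55. These are descriptions over genes that share precursors, libraries and in part bases.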

How the data were processed

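RNA of 12 libraries was prepared with a TruSeq protocol. Per the labels and the paper's methods, the authors aligned reads with TopHat2 2.1.0 to hg38, and their deposited tables hold gene counts of each library. The submitters' processing notes name HTSeq, edgeR and limma, while the paper names other programs for counting and testing. The strand setting is not given in the sources used here. Values of log2 CPM, fold change and adjusted p that the authors deposited beside the counts were not used.

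After filterByExpr and TMM scaling, raw counts were analysed by quasi-likelihood F tests (edgeR 4.0.16, R 4.3.3), 2-sided, with Benjamini-Hochberg adjustment over all genes tested and a threshold of 0.05. Standard errors were derived from the F statistic. The K562 sets were fitted as groups of one model with 8 libraries, as a block, and left out of the model. KBM7 and K562 responses were compared over genes of both tables, with the mean of the set responses standing for K562. Shares were compared by exact permutation tests. Python 3.11.15, numpy 2.4.6, pandas 2.3.3, scipy 1.17.1 and matplotlib 3.10.9 were used. The tests were also run on simulated counts with 200 changed genes, and the outcome is not given here. Those counts held no difference in level between the K562 sets, so that setting was not covered.

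Total counts were 23020401 to 43566543. No source says that replicates were separate cultures, so p-values measure the spread between libraries only. Replicates differed by more than sampling noise. Replicate numbers come from the titles. Around siRNA means, same-numbered K562 libraries correlated at 0.52 to 0.65, above 0.1 in every pair, which was taken as pairing. Libraries of different number reached 0.650 as well. Around means of set and siRNA, same-numbered libraries correlated at only 0.0168 and 0.0865, so pairing within the sets is not established. In KBM7 the correlation was 0.000978.

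Members and gene lists were chosen with earlier results of these data known. Named were the protein and rRNA genes, tRNA genes averaging 1 log2 CPM or more, and of the 46 factors 10 by role and the 4 of lowest p in KBM7 and in the blocked K562 fit. Alternatives were RLE size factors, no filter, library totals without mitochondrial genes, each library left out (a lone library was taken to have the spread of the other groups), the replicate block, DESeq2 1.42.0, limma-voom 3.58.1, 1 set alone and other denominators of the shares. Sequences came from hg38 with GENCODE genes.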

Additional observations from a re-analysis of the deposited data

Results flagged for a closer look

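The response to siUSP15 differed between the K562 sets, set 1 minus set 2 by the interaction test of edgeR, for MT-ND3 (0.40), MT-CYB (0.38), MT-ND1 (0.37), MT-CO3 (0.30), MT-ATP8 (0.23), MT-ND2 (0.22) and MT-ATP6 (0.21). It differed between the lines, KBM7 minus the mean of the K562 sets, for MT-ND6 (-0.59), MT-CYB (-0.42), MT-ND3 (-0.27) and MT-RNR2 (0.36). In 42 groups of 4 K562 libraries examined, over the normalized CPM of 17 mitochondrial genes and 4 shares of counts, no library stood apart from the other 3, but each group joined 2 libraries of set 1 with 2 of set 2, where a single deviating library could hardly show.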

How the results depend on the processing

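The 13 calls between the siCtrl libraries of the K562 sets stood under every alternative run, and the count in set 1 ran from 7 to 11. The ratio of shares crossed 1 when 1 library was left out in KBM7 (0.881 to 1.15), over all K562 libraries (0.956 to 1.14) and in set 2 (0.999 to 1.01), but not in set 1. With no filter on low counts, 5 protein genes were called in KBM7 in place of 0, 3 in place of 1 in set 2, 8 in place of 3 with the sets as a block, and 7 in place of 3 for the difference between the lines. DESeq2 called 0 in set 2 and 1 for that difference. A fit of the 4 libraries of set 2 alone called 2. When 1 library was left out, the counts ran from 2 to 5 in KBM7, 8 to 10 in set 1, 0 to 2 in set 2, 4 to 9 for the difference between sets, 2 to 6 with the sets as a block and 1 to 8 for the difference between the lines, and stayed at 0 in K562 without a block. The share of all genes called is not given for these alternatives, so the counts cannot be read as particular to the mitochondrial genes. The cause was not tested.

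With the replicate block, 2 genes were called in set 2, 2 over all K562 libraries (1 fit, which takes up the sets and so stands for the fits with and without them), 9 in set 1, 7 for the difference between sets and 0 in KBM7. Of 4 pairs, not all libraries correlated best with their own number. Of 1680 values of single genes under alternatives, 1566 kept their side of the threshold, 75 newly passed it, 39 no longer did and 0 changed sign as calls. With 2 libraries a group, an exact test cannot go below 0.333.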
